A study of Mus musculus with 11 samples.

Results

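miR-1, miR-206, miR-133a* and miR-133b, 4 miRNAs known from skeletal and heart muscle, were followed over 8 mammary glands and 3 mammary tumors of the mouse. The members, mmu-miR-1, mmu-miR-206, mmu-miR-133a* and mmu-miR-133b on a custom miRNA array, were 4 of its 334 mouse miRNAs, with 4 spots each and so 16 of the 1336 mouse spots on an array. They were selected on their green levels in these same arrays, which differed between mouse strains. Their strain values are therefore given as a description without a test. The tumor arrays took no part in the choice, but they are compared with the same gland values, so that the differences of the members from the tumors are also a description.

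The glands came from normal females late in pregnancy, with 2 arrays of strain FVB, 3 of Balb/C (labelled Balbc) and 3 of FVB129B6, a mixed background that includes FVB. The titles of Balb/C replicates 2 and 3 could name the left and right gland of 1 mouse. The tumors were 3 C3(1)/Tag tumors (labelled C3TAg) from FVB mice, in which the C3(1) promoter, the flanking sequence of a rat prostate steroid-binding protein gene, drives the SV40 T and t antigens. Not all labels tie the samples to separate animals, so a test over them measures the spread between these samples, which may in part be technical. All 8 gland arrays lay on 1 slide, where both FVB arrays stood in column 4 and the other strains in columns 1 to 3. The tumor scans came from a second slide, extracted by a different version of the program and without the extended range, so that tumor and slide cannot be told apart, nor can FVB and column 4. Of the 334 miRNAs, between 209 and 262 gave signals well above background on a gland array but only 15 to 64 on a tumor array. The small number of arrays limits the precision.

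miR-1 and miR-206 form a seed family that promotes muscle differentiation, and miR-133a and miR-133b form a second family that acts on muscle growth and proliferation. Genes of the 2 families sit side by side in the genome and are transcribed together under the control of myogenic factors, miR-206 and miR-133b mainly in skeletal muscle and miR-1 and miR-133a in heart as well. miR-133a* is the opposite strand of the miR-133a hairpin, the strand that is usually less abundant. A mammary gland lies on muscle of the body wall and contains smooth-muscle-like myoepithelial cells, but skeletal fibers are not a part of its epithelium. The arrays measured whole tissue, in which fewer cells of a type and less RNA per cell cannot be told apart.

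miR-206 and miR-133b are shown because they share 1 locus while their seeds differ, which bears on the ratios between members. Both mature sequences were taken from a RefSeq table on GRCm38.p6, in which 2 of the 4 members were matched, and capitals mark the seed, bases 2 to 8. miR-206 lies at chr1:20679055-20679076 and miR-133b at chr1:20682834-20682855, both on the plus strand. Their hairpins are 3686 bases apart.
miR-206: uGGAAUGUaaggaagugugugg
miR-133b: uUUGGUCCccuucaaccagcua
The deposited probe of miR-206 held the complement of all 22 bases, and that of miR-133b the complement of 21 of its 22. Among the mouse probes, miR-206 and miR-1 were each other's nearest, at 5 base edits, and only these 2 probes came within that limit of a member. miR-133b was 11 edits from miR-133a* and 8 from miR-702, the nearest of the probes compared. The main strand miR-133a was not among them. Whether the miR-133b probe tells miR-133b from miR-133a was therefore not tested, and its signal may hold both. The nearest probe to miR-133a* was that of miR-379, at 9 edits.

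Levels are the log2 of the green intensity minus the array's median, so that 0 is the median spot of an array. The spots of a member on a gland array had a median SD of 0.049 on this scale. In FVB glands the level of miR-1 was 2.38 and 4.06. In Balb/C glands it was 8.89, 8.67 and 8.06, and in FVB129B6 glands 7.25, 7.44 and 7.41. miR-1, a marker of striated muscle, was thus low in both FVB arrays, and no FVB value came near the other strains. The order was Balb/C with 8.54 ± 0.43 (SD, n = 3), FVB129B6 with 7.37 ± 0.10 (SD, n = 3) and FVB with 3.22 ± 1.18 (SD, n = 2), and no neighbors in it overlapped. In unscaled intensity this ran from 1282 and 3138 in FVB to between 148744 and 275974 in Balb/C. On each Balb/C array all 4 spots of miR-1 and of miR-133b had been taken by the program from the lower-gain scan and scaled up, as had 3 and 4 spots of miR-133b on FVB129B6 replicates 2 and 3.

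miR-206, the skeletal-muscle member of the same seed family, had levels of -1.83 and 0.064 in FVB glands. The 3 Balb/C glands had 4.99, 4.61 and 3.94, and the 3 FVB129B6 glands 3.88, 3.70 and 4.21. The last 2 groups overlapped, with means of 4.51 ± 0.53 and 3.93 ± 0.26 (SD, n = 3 each), while FVB lay apart. On FVB replicate 1 the program called 3 of the 4 miR-206 spots well above background. The 4 spots ran from 44.2 to 105, with an average intensity of 68.8. On that array 16 spots of random 22-base sequence had a median of 15.25 and a highest value of 50.2, above the lowest miR-206 spot. On the 7 other gland arrays all 4 spots were called.

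miR-133a*, the strand opposite to miR-133a, measured -0.63 and 1.91 in FVB glands, on either side of the array median. It measured 5.57, 5.49 and 4.73 in Balb/C and 4.13, 4.12 and 4.22 in FVB129B6 glands. Means were 0.64 ± 1.80 (SD, n = 2), 5.26 ± 0.46 (SD, n = 3) and 4.16 ± 0.056 (SD, n = 3). The 3 strains did not overlap. Unscaled, the spots averaged 158 and 707 in FVB glands and at least 9097 in every other gland.

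miR-133b, encoded beside miR-206, had levels of 2.80 and 5.56 in FVB glands. It reached 8.95, 9.12 and 8.21 in Balb/C and 7.50, 7.65 and 7.68 in FVB129B6 glands. The FVB mean of 4.18 ± 1.96 (SD, n = 2) lay below 7.61 ± 0.098 in FVB129B6 and 8.76 ± 0.49 in Balb/C (SD, n = 3 each), again with no overlap. FVB replicate 2 stood closest to the other strains in this miRNA, at 1.94 below the lowest of their 6 arrays.

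**Figure D1:**
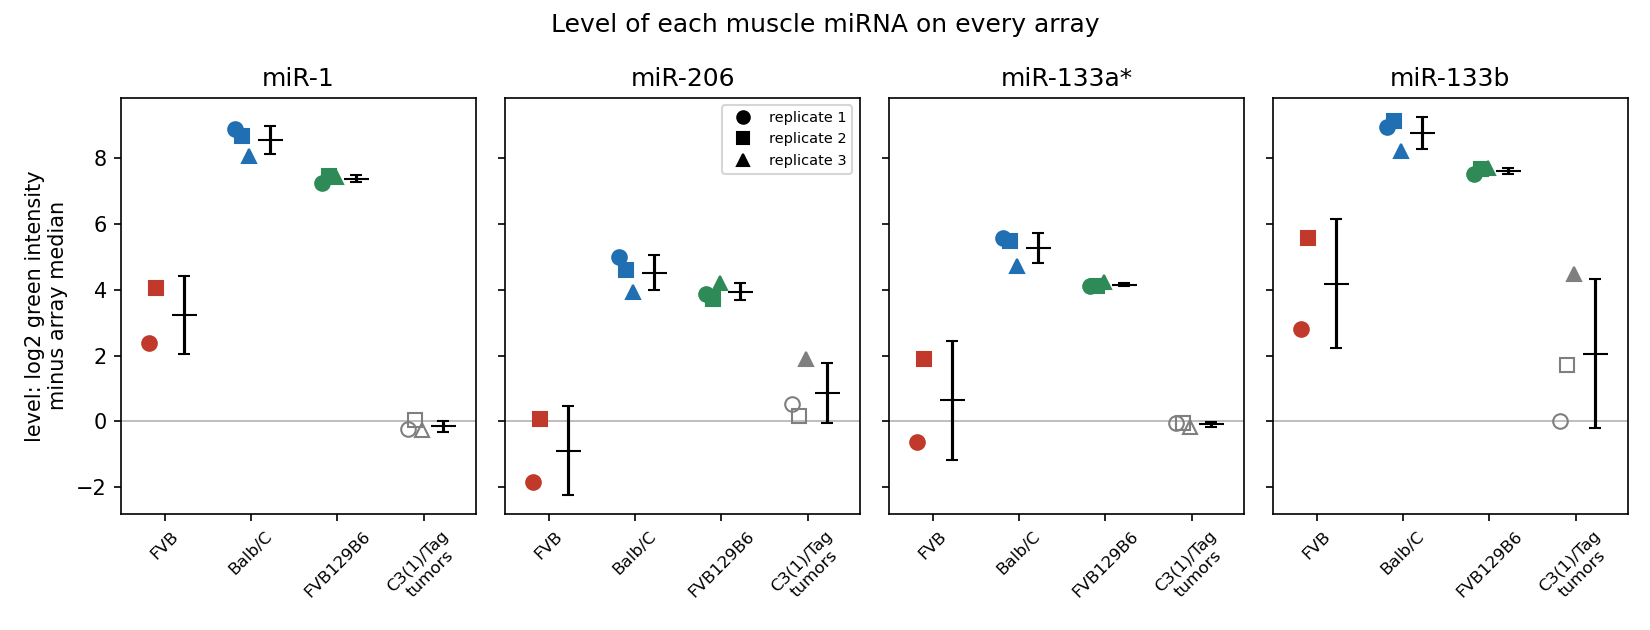
Level (log2 green intensity minus the array median) of the 4 muscle miRNAs on each of the 11 arrays, by group; filled symbols are arrays on which the program called at least 50% of the green spots well above background, and bars give mean ± SD. Both FVB glands lie below all 6 other glands in each panel, and of the tumor values only miR-206 and miR-133b on tumor 3 are filled.

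Both FVB glands lay below all 6 others in 4 of the 4 members. Of the 261 miRNAs with signal above background on 3 or more arrays, 8.81% did so, and since the members were chosen for this contrast nothing is read from the count. The gaps between the higher FVB array and the lowest other gland were 3.64 for miR-206, 3.20 for miR-1, 2.21 for miR-133a* and 1.94 for miR-133b, ranks 1 to 4 of 261. Because of the same choice, nothing is read from these ranks either. All Balb/C glands lay above all FVB129B6 glands in 3 of the 4 members, with miR-206 the exception, against 14.2% of the 261. The members were chosen on strain differences in these arrays, so this count is likewise only a description. Between Balb/C and FVB129B6 the differences were 1.17 for miR-1, 1.15 for miR-133b, 1.10 for miR-133a* and 0.58 for miR-206.

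Against FVB, Balb/C glands were higher by 5.40 for miR-206, 5.32 for miR-1, 4.62 for miR-133a* and 4.58 for miR-133b. The corresponding differences of FVB129B6 glands were 4.82, 4.15, 3.52 and 3.43. The median miRNA moved the other way, by -0.48 in Balb/C and -0.39 in FVB129B6, on the same scale. The pooled SD between replicates was 0.60 for miR-1, 0.71 for miR-206, 0.86 for miR-133a* and 0.93 for miR-133b. Since the members were chosen for this contrast, nothing is read from the size of the differences beside these SDs. Over the 4 members the mean difference between Balb/C and FVB was 4.98, and it was 3.87 without FVB replicate 1 and 6.09 without FVB replicate 2. Without any scaling, the median miRNA was 0.87 higher in Balb/C than in FVB, and the 4 members were 6.33 higher on average. With normexp, another background correction, the difference of miR-206 from FVB was 4.03 for Balb/C and 3.33 for FVB129B6. For Balb/C it was then the smallest among the members, where miR-133a* had 4.32. With quantile normalization miR-206 differed by 4.39 and 3.80.

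The array median itself was lower on the FVB arrays, at intensities of 245.5 and 188.5 against 508 to 671.5 on the other gland arrays. U6, a small nuclear RNA whose 22-base control spots lay on the same arrays, was not lower there. Its intensities were 84900 and 106000 in FVB, 77800, 59050 and 88500 in Balb/C, and 63150, 108000 and 74650 in FVB129B6 glands. These FVB values of U6 lay inside the range of the other strains, unlike those of all 4 muscle miRNAs. A longer U6 control from the other end of the RNA gave 48500 and 83100 in FVB and from 23950 to 52450 in the other glands, so that FVB replicate 2 was the highest. The cause of the lower FVB medians, and its bearing on the members, was not tested.

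The members also changed place among the 334 miRNAs of each gland. miR-133b ranked 1, 1 and 4 by signal in Balb/C glands, 9, 7 and 9 in FVB129B6 and 105 and 55 in FVB glands. miR-1 ranked 2, 2 and 6, then 13, 12 and 15, then 111 and 86 in the same order of strains. Both were thus among the brightest miRNAs of the gland in Balb/C and FVB129B6 but not in FVB. miR-133a* ranked from 47 to 63 in Balb/C, from 74 to 78 in FVB129B6 and 180 and 124 in FVB glands. miR-206 ranked from 58 to 79, from 79 to 84, and 206 and 166. Probes bind with different strength, so that these ranks order signals and not numbers of molecules.

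The 16 spots, 1.20% of the mouse spots, held 12.9%, 11.9% and 7.34% of the summed green signal on the Balb/C arrays. They held 4.84%, 5.32% and 4.65% on the FVB129B6 arrays and 0.119% and 0.531% on the FVB arrays. On every array but that of tumor 1 the brightest of the 4 was miR-133b. The share within an array does not depend on its scaling, and by this measure the lowest array of the other strains was still above FVB replicate 2, the higher of the FVB pair.

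The FVB replicates differed in the same direction for all 4 members. FVB replicate 2 exceeded replicate 1 by 1.67 for miR-1, 1.90 for miR-206, 2.54 for miR-133a* and 2.77 for miR-133b. The median size of this difference over the 261 miRNAs was 0.41, and the 4 members took ranks 12, 7, 3 and 2. Balb/C replicate 3 was the lowest of its strain in every member, below replicate 1 by 0.83 for miR-1, 1.05 for miR-206, 0.84 for miR-133a* and 0.75 for miR-133b, against a median size of 0.25. It was also below replicate 2, the array with the like title, by between 0.61 for miR-1 and 0.91 for miR-133b. The 3 FVB129B6 glands stayed within 0.51 of each other for miR-206 and within 0.19 for the other members.

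Ratios between members within an array are free of the scaling between arrays. miR-133b exceeded miR-133a* by 3.43 and 3.65 in the FVB, 3.38, 3.64 and 3.48 in the Balb/C, and 3.37, 3.53 and 3.46 in the FVB129B6 glands. Over the 8 glands this log2 ratio was 3.49 ± 0.11 (SD, n = 8), although each member's level had an SD of 2.08. Of all 20706 pairs among the 204 miRNAs well above background on the 8 glands, 0.386% had a smaller SD, and the median pair had 0.56. The members were chosen on their gland levels, so nothing is read from such percentages of pairs. The SD of the ratio of miR-133b to miR-133a* was 0.52 with normexp and 0.21 with green divided by red.

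miR-1 exceeded miR-206 by 3.83 ± 0.36 (SD, n = 8), an SD that was 0.79 with normexp. The ratio was 4.22 and 3.99 in FVB, 3.90, 4.06 and 4.12 in Balb/C, and 3.38, 3.74 and 3.20 in FVB129B6 glands. All FVB129B6 values were below the other 5, the gland group in which miR-206 was relatively brightest. miR-133b exceeded miR-1 by 0.41 ± 0.46 (SD, n = 8). In this ratio FVB replicate 2 stood out with 1.50, while the other 7 glands lay between 0.068 and 0.45. On that array miR-133b and miR-133a* were both higher relative to miR-1 than elsewhere, since miR-1 exceeded miR-133a* there by 2.15 and on the other glands by 3.02 to 3.33.

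miR-133b and miR-206, the pair from 1 locus, did not hold the steadiest ratio. It was 4.63 and 5.50 in FVB, 3.96, 4.51 and 4.27 in Balb/C, and 3.62, 3.95 and 3.47 in FVB129B6 glands, a mean of 4.24 ± 0.65 (SD, n = 8). Of all pairs, 60.7% had a smaller SD. FVB glands lay above the others in this ratio, and Balb/C and FVB129B6 nearly met, at 3.96 and 3.95. miR-133a* over miR-206 followed the same order, with 0.75 ± 0.58 (SD, n = 8) over the glands. These are ratios of probe signals, and only their changes between arrays can be read.

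**Figure D2:**
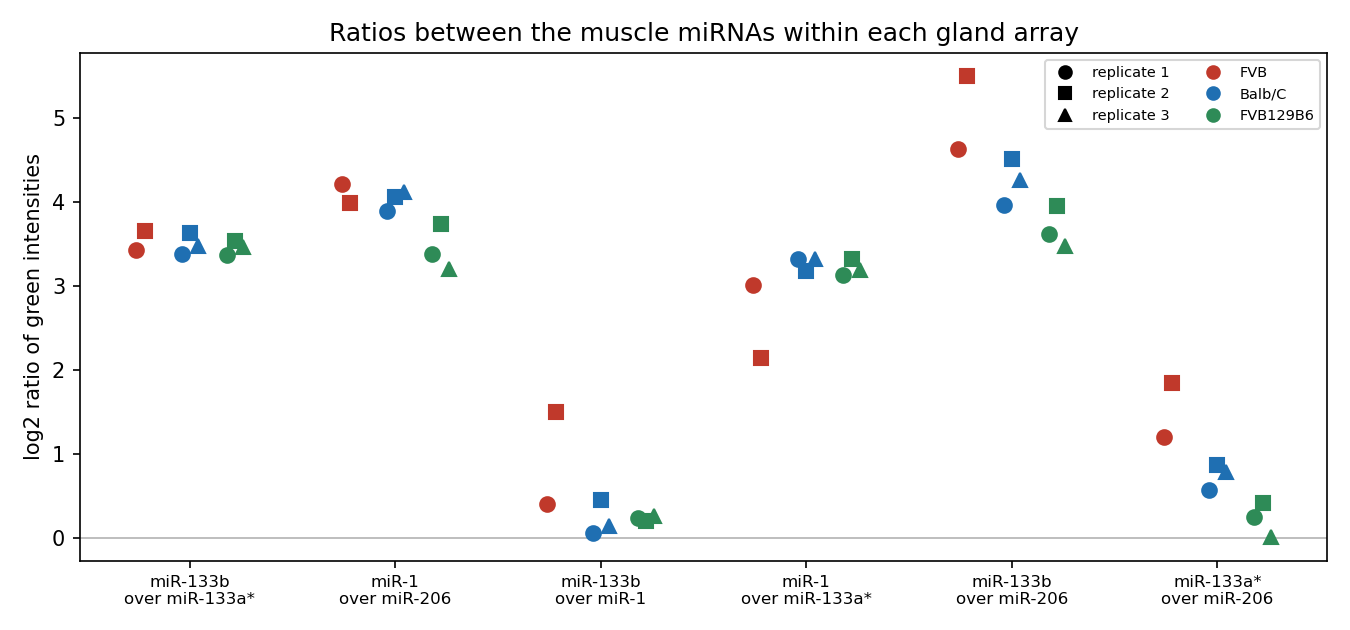
Log2 ratio of green intensities for each pair of the 4 muscle miRNAs within each of the 8 gland arrays, colored by strain with symbols for replicates. The ratio of miR-133b to miR-133a* stays between 3.37 and 3.65 on all 8 arrays, and FVB replicate 2 lies apart in miR-133b over miR-1 at 1.50.

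With the strain means removed, the levels of any 2 members still moved together over the 8 glands, with Pearson's r from 0.939 for miR-133b and miR-206 to 0.995 for miR-133b and miR-133a*. These points share arrays and scaling, and the FVB pair lies farthest from its mean. Among 200 other miRNAs well above background on all 8 glands, the pattern most like the mean of the 4 members was that of miR-382, with r = 0.919, followed by miR-337 (0.837), miR-672 (0.806), miR-21 (0.761) and miR-712 (0.747). With strain means removed, r was 0.209 for miR-382, -0.231 for miR-337, 0.540 for miR-672, -0.233 for miR-21 and -0.222 for miR-712. miR-382 ranged over 1.17 and miR-21 over 0.95 on the log2 scale, against 6.20 to 6.83 for the members, and no candidate ranged as far as a member. The ranges of the members hold the strain differences on which they were chosen, so nothing is read from their size. miR-672 came nearest of the 5, with a range of 2.86 and levels of -0.89 ± 0.39 (SD, n = 2) in FVB, 0.84 ± 0.71 and 1.62 ± 0.080 (SD, n = 3 each) in Balb/C and FVB129B6 glands.

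Of 6 other miRNAs listed as enriched in muscle, 3 were on the analysed rows, and miR-486 alone of these was well above background in all 8 glands. miR-208, which is hosted in a cardiac myosin gene, was not well above background in any gland. miR-499, hosted in a myosin gene of heart and slow muscle, was well above background in 1 of 2 FVB, 2 of 3 Balb/C and no FVB129B6 glands, with mean levels of -2.64, -2.99 and -4.26. miR-486, abundant in muscle and in red cells, had 4.01 ± 0.48 (SD, n = 2) in FVB, 3.57 ± 0.41 in Balb/C and 2.18 ± 0.22 in FVB129B6 glands (SD, n = 3 each), so that the mean was highest in FVB. The main strand miR-133a and the arms miR-208a and miR-208b are not analysed here.

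Of 11 measured miRNAs that take part in myogenic differentiation but are made in many tissues, FVB was below all other glands in 0 and above all of them in 4, against 8.81% of the 261 miRNAs below and 38.3% above. Among the 11 were miR-26a, with means of 8.27, 7.47 and 7.30 in FVB, Balb/C and FVB129B6, and miR-24, with 7.98, 7.31 and 7.20. Their median difference between Balb/C and FVB was -0.67, near the -0.48 of all miRNAs. The smooth-muscle and stromal miRNAs miR-143 and miR-145, which mark contractile and connective cells, had means of 9.12 and 8.36 in FVB, 8.54 and 7.70 in Balb/C, and 8.50 and 7.67 in FVB129B6 glands. The 4 measured miRNAs of that list had a median difference of -0.47 between Balb/C and FVB.

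Lists for other cell types were set beside the members. Epithelial miRNAs, the miR-200 family with miR-203 and miR-205, were well above background in all glands, and in FVB 0 of 7 lay below and 0 of 7 above all other glands, against 8.81% and 38.3% of the 261 miRNAs. Their median level was 5.88 and 6.46 in FVB, 5.71, 5.04 and 6.02 in Balb/C, and 6.09, 5.87 and 6.18 in FVB129B6 glands. Their share of the green signal was 3.95% and 6.61%, then 4.71%, 3.10% and 6.01%, then 7.48%, 6.32% and 6.94%. Balb/C replicate 3, the Balb/C gland with the lowest muscle miRNAs, had the highest epithelial median and share of its strain, and FVB replicate 2, with more of the muscle miRNAs, had the higher epithelial values too. The erythroid miRNAs miR-451, miR-144 and miR-486 had means in the order FVB, Balb/C and FVB129B6, with 9.53, 8.15 and 6.95 for miR-451, their most abundant. Of 5 leukocyte miRNAs 0 lay apart in FVB, where their median level was 4.31 and 4.03. Balb/C replicate 2 stood apart in this list, with a median of 4.47 and 4.12% of the green signal, against 3.05 to 3.54 in the other glands outside FVB and 0.577% to 0.743% of the signal on all other glands. Of the brain and liver miRNAs miR-124a, miR-9 and miR-122a, 3 of 3 lay above all other glands in FVB, where 38.3% of the 261 did, and no other listed miRNA among the 261 lay below all of them. The part of these cell types in the muscle values was not tested.

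**Figure D3:**
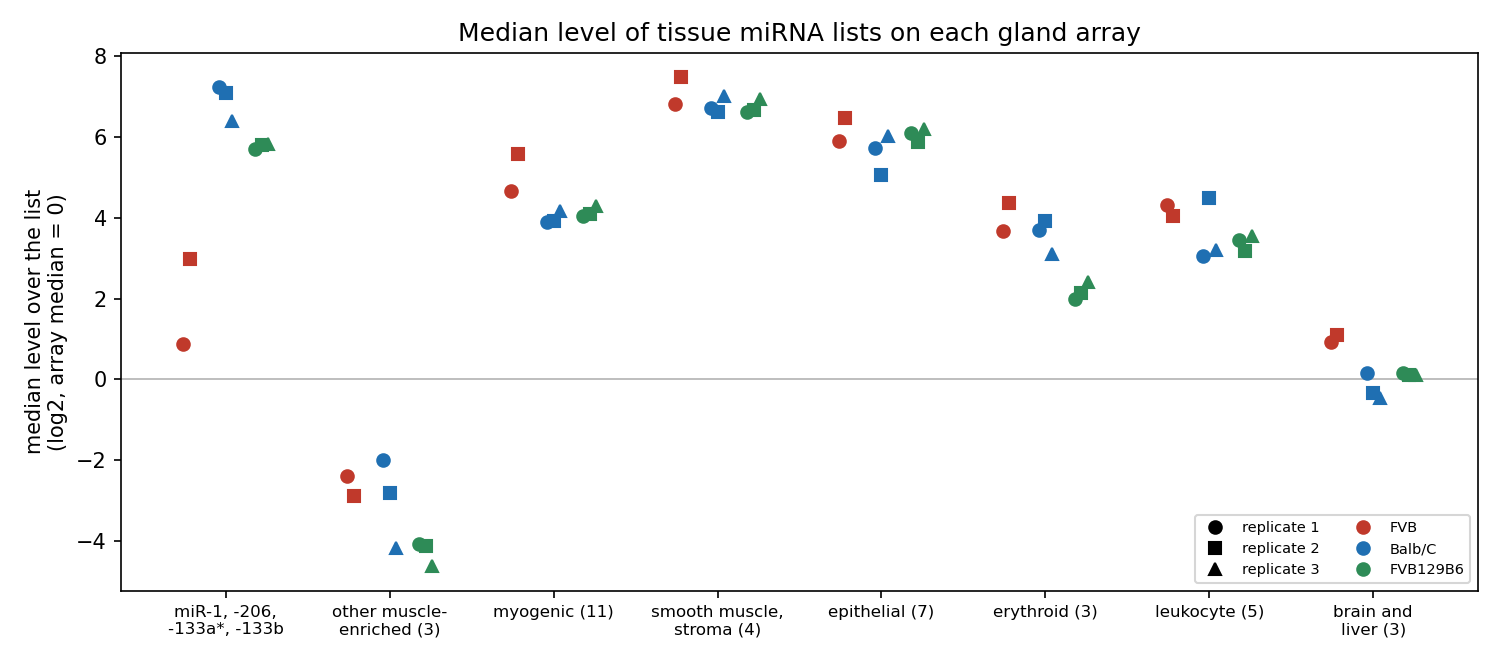
Median level (log2, array median at 0) over each list of tissue-linked miRNAs on each of the 8 gland arrays, with the number of measured miRNAs in parentheses, colored by strain with symbols for replicates. The 4 muscle miRNAs have medians of 0.88 and 2.98 in FVB glands and 5.69 to 7.23 in the others, and the other lists do not show FVB far below.

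The scans also held a red channel, for which the labels name no sample. The members were well above background in red on all 8 glands, and their red share of the signal hardly differed, from 2.71% to 3.36%. miR-206 was the dimmest of them in red. On the FVB arrays it had red intensities of 1166 and 975, against red medians of 598.5 and 527.5. The red log2 differences between Balb/C and FVB glands, on levels scaled to the red median, were 0.57 for miR-1, 0.18 for miR-206, 0.37 for miR-133a* and -0.10 for miR-133b. Those between FVB129B6 and FVB were 0.61, 0.12, 0.17 and -0.27, while the green differences were 3.43 to 5.40. For miR-1, FVB replicate 1 had red intensity 26896 with green 1282, and FVB replicate 2 had red 11688 with green 3138. On both FVB arrays every member had a higher intensity in red than in green of the same scan.

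**Figure D4:**
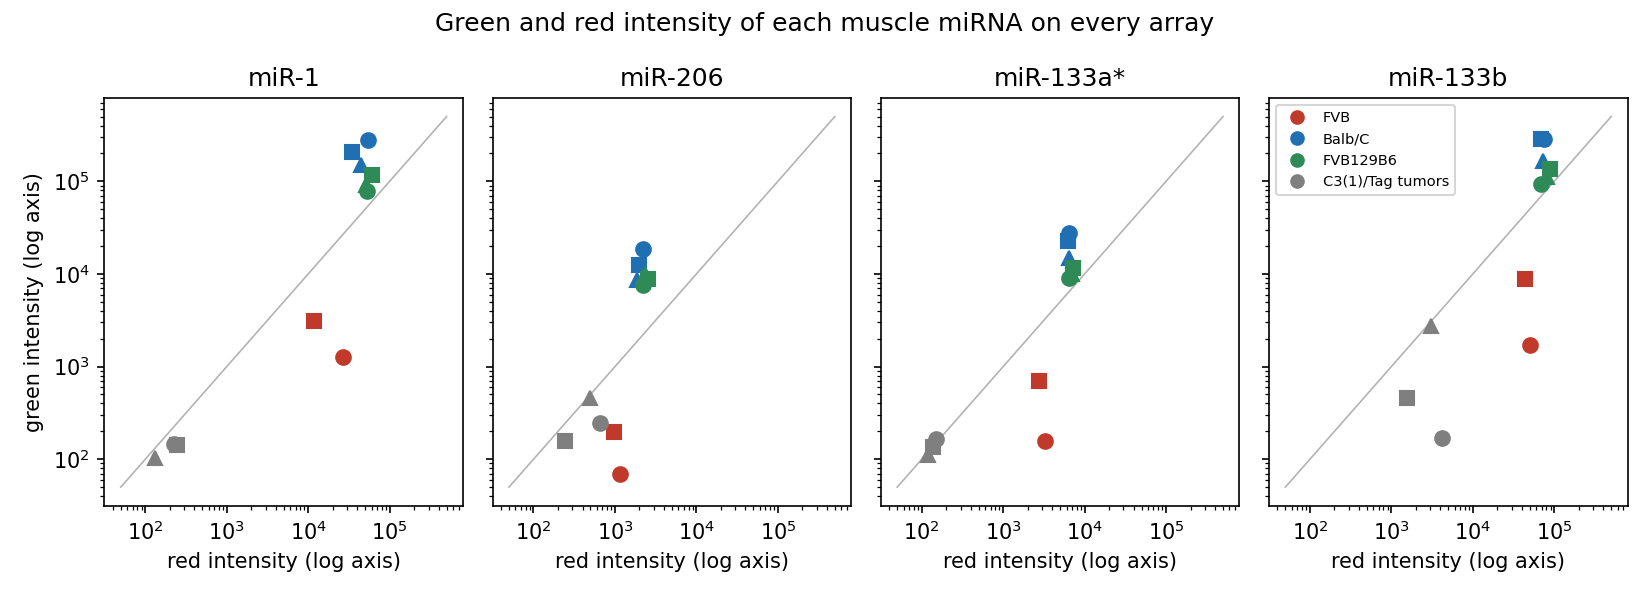
Green against red intensity (both log axes) of the 4 muscle miRNAs on each array, colored by group with circles, squares and triangles for replicates 1, 2 and 3; the gray line marks equal intensities. FVB glands lie below the line and the other glands above it for every member, while the glands spread more in green than in red.

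The tumors were compared with the glands to ask which miRNAs differ from normal glands of late pregnancy. No pregnancy is named for the tumor mice, so that tumor and pregnancy may not be told apart. The members were seldom above background in the tumors. On the tumor arrays miR-1 and miR-133a* had 0 of 4 spots well above background on each of 3 arrays, and their levels were -0.22, 0.043 and -0.27, and -0.046, -0.051 and -0.18. miR-206 had levels of 0.53, 0.16 and 1.88 and miR-133b of 0.011, 1.70 and 4.47, on tumors 1, 2 and 3. Tumor 3 was high in both, with 3 of 4 miR-206 spots and 4 of 4 miR-133b spots called, and the 3 tumors otherwise gave no green spot of a member that was called. In the red channel miR-133b was called on 4 of 4 spots of each tumor array, with red intensities of 4222, 1573 and 3078.

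On tumor 3 the miR-133b spots ran from 2270 to 3620 in intensity, where the 16 random 22-base spots had a median of 114 and a highest value of 213. The miR-206 spots ran from 375 to 550. On tumor 2 the miR-133b spots averaged 454, against a highest random value of 296, but were not called. miR-1 and miR-133a* averaged 103 and 110 on tumor 3, so that only miR-206 and miR-133b were raised over the random spots on this array. miR-133b exceeded miR-206 there by 2.59, below all 8 glands, whose lowest value was 3.47.

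**Figure D5:**
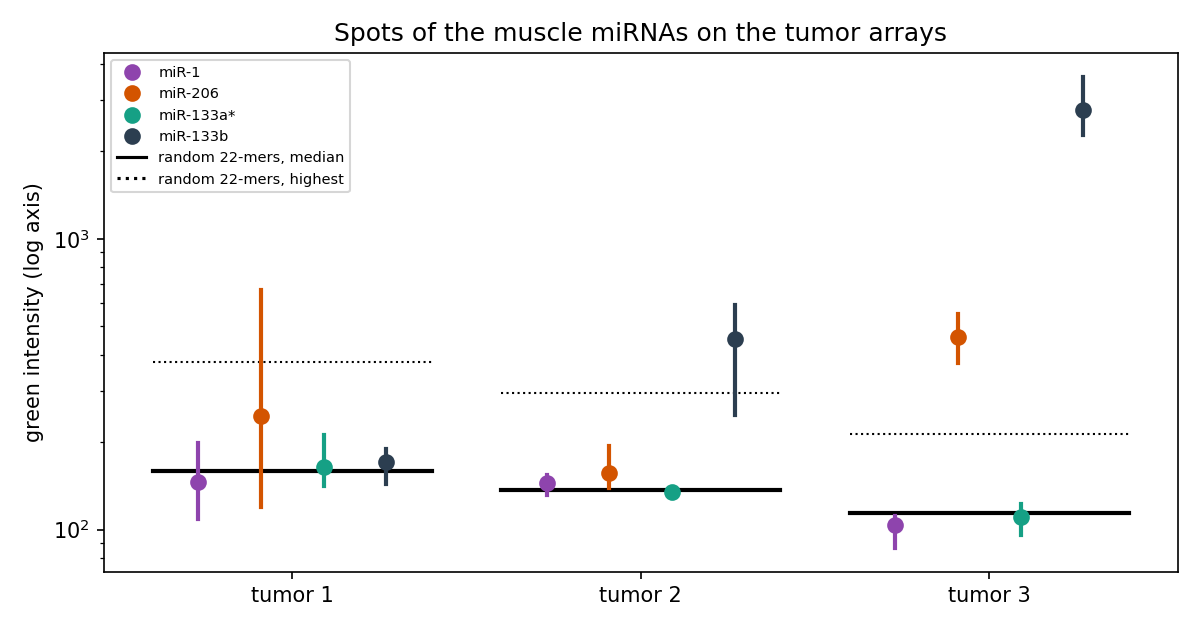
Green intensity (log axis) of the 4 muscle miRNAs on each tumor array; points are the means over spots on the log scale, bars run from the lowest to the highest spot, and lines give the median and the highest of 16 random 22-base spots. Only miR-206 and miR-133b on tumor 3 have all spots above the highest random spot.

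Against the mean of the 3 strain glands, 4 of 4 members were lower in tumors and past the threshold of limma's fit. Over all 261 miRNAs that fit, adjusted by Benjamini-Hochberg, called 52.5% lower, 37.9% higher and so 90.4% in either direction. The gland values in this contrast are those on which the members were selected, and all 4 members entered it through the glands, so that nothing is read from the count and no p is given. The log2 difference was -6.53 for miR-1, -4.79 for miR-133b, -3.45 for miR-133a* and -1.66 for miR-206, and the median over all miRNAs was -0.83. That of miR-133b was -3.77 without tumor 1 and -6.00 without tumor 3. For miR-206 it was -1.31 without tumor 2 and -2.17 without tumor 3. The sizes also depended on the scaling of the arrays. On the 75th percentile miR-133a* differed by -0.47, and miR-206 turned to 1.31, past the threshold. With quantile normalization miR-133b differed by -2.29, and with green divided by red miR-1 differed by -0.79. Where no tumor array was well above background, a bound was set with each tumor array at the dimmest signal that the program still called. With the array median as scale and each array's own floor, miR-1 was at least 23.9-fold higher in the glands, and the smallest bound over the scalings was 2.91-fold, with quantile normalization. With 1 floor common to all arrays its log2 difference was -4.24. miR-133a* was at least 2.94-fold higher, but no bound remained on the 75th percentile.

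The tumors were also compared with FVB glands alone, the strain of the tumors. Here limma's fit called 52.5% of the 261 miRNAs lower and 35.6% higher in tumors, 88.1% in all, and of the members miR-1 lower and miR-206 higher. FVB was also the strain in which the members were selected as low, so that these 2 calls are not evidence of a difference. The log2 difference was -3.37 for miR-1, at least 2.69-fold with each array's own floor. This bound was lost on the 75th percentile, where the difference was -0.13, and with 1 floor common to all arrays the difference was -1.09 and not past the threshold. With green divided by red it turned to 2.26, past the threshold. For miR-206 it was 1.74, but its unscaled intensities were 245, 157 and 461 in tumors against 68.8 and 197 in FVB glands, so that the groups overlapped. miR-206 was well above background on 1 of 3 tumor arrays, and the difference was 1.23 without tumor 3, and 0.79 and 2.69 without FVB replicates 1 and 2. It ran with the scaling and background from 0.29 with normexp to 4.98 on the 75th percentile, and was 0 with the common floor. The differences of miR-133a* and miR-133b were -0.73 and -2.12, and neither was past the threshold. On the 75th percentile they turned to 2.51, which was past the threshold, and to 1.12, which was not. That of miR-133b was -3.32 without tumor 3 and -1.09 without tumor 1, and -3.50 and -0.73 without FVB replicates 1 and 2. That of miR-133a* was -2.00 without FVB replicate 1 and 0.54 without replicate 2. The median of the tumor arrays, at intensities of 170, 140 and 125, lay close to their random 22-base spots, at 159.5, 137 and 114, whereas on the glands the random spots lay from 14.4 to 21.95. Both contrasts share the FVB arrays.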

How the data were processed

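RNA of 11 samples in 4 groups was measured on a custom 2-color miRNA array. The authors deposited, for each scan, green and red intensities from Feature Extraction 9.5.1.1 (tumors) or 10.5.1.1 (glands), corrected within the array for background and dye, with quality calls per spot. They also deposited a log2 table of the same green signal after global median normalization, used here as an alternative. Members and lists were chosen with earlier results of these data known.

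The array median of the 1336 spots was subtracted from log2 green intensities, outlier spots were left out and spots were averaged per miRNA. A miRNA entered a comparison when the program called 50% or more of its spots well above background on 3 or more arrays, which 261 did. Tumors were compared by limma 3.58.1 in R 4.3.3 in a 4-group fit with a threshold of 0.05 after Benjamini-Hochberg adjustment. Strains and ratios were only described, as were the tumor differences of the members, whose gland values had served to choose them. Named miRNAs were the members, the miRNAs of the tissue lists, the 5 most like the members by Pearson's r, and probes within 5 base edits.

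The fit, tested on simulated data with 261 miRNAs, recovered 84% of log2 changes of 1 against the mean of the strains and 36% against FVB, and 100% of those of 2. The simulation gave every miRNA the same spread, the median over the tested miRNAs, and had no background floor. Its rates therefore need not hold for the members or for signals near background. Alternatives were other scalings, the deposited table, outlier spots kept, normexp with an offset of 50, green over red, other filters, floors, an intensity trend, averaged Balb/C arrays, the replicate block and each array left out. Python 3.11.15, numpy 2.4.6, pandas 2.3.3 and matplotlib 3.10.9 were used. The mature sequences of miR-1 and miR-133a* are not reported here.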

Additional observations from a re-analysis of the deposited data

Results flagged for a closer look

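The red channel of the gland arrays, which lies outside the green measurement that the levels rest on, held signal for all 4 members. The median red intensity over the 8 glands was 47461 for miR-1, 2063 for miR-206, 6411 for miR-133a* and 71471 for miR-133b. The lowest member value in red on any gland was 975, and the highest red value of a random 22-base spot was 47. On each of the 8 glands the program called the members well above background in red. The labels name 1 dye for each sample, and what was hybridized in the red channel is not given in the sources used here.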

How the results depend on the processing

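Both FVB glands lay below the other 6 in 4 of 4 members under each of 6 other scalings, backgrounds or channels, where the share of all miRNAs doing so ran from 18.4% to 66.7%. The members were chosen for this contrast, so nothing is read from the count. The mean difference of the members was 4.98 between Balb/C and FVB and 3.98 between FVB129B6 and FVB. Without normalization these were 6.33 and 5.39. With each gland left out in turn they ran from 3.87 to 6.09 and from 2.87 to 5.09, the extremes being those without FVB replicate 1 and replicate 2, and the difference between Balb/C and FVB129B6 ran from 0.83 to 1.27. The ratio of miR-1 to miR-206 was 3.37 with normexp and that of miR-133b to miR-133a* 3.18. Dividing green by red, which sets each probe against its own red signal, gave -0.56, -0.13 and, for miR-133b over miR-1, -0.41. With arrays left out these 3 ratios ran from 3.77 to 3.91, 3.47 to 3.51 and 0.26 to 0.46.

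limma called 236 miRNAs between tumors and the mean of the strains and 230 between tumors and FVB. The counts were 13 and 12 with a filter on every array, which left 15 miRNAs and no member, and 106 and 102 with 1 common floor for all signals, an alternative chosen after seeing the data. They ran from 224 to 235 and from 214 to 230 with arrays left out. On the 75th percentile 172 were higher and 70 lower in tumors than in the mean of the strains, against 99 and 137 on the array median. With the common floor the differences from the mean of the strains were -4.24 for miR-1, -1.39 for miR-206, -1.72 for miR-133a* and -3.94 for miR-133b, and those from FVB -1.09 for miR-1, 0 for miR-206 and miR-133a*, and -1.27 for miR-133b. Against FVB, miR-206 differed by 1.16 without normalization, by 0.29 with normexp, by 2.90 with a floor per array, by 4.70 on the median of miRNAs above background on all arrays and by 4.98 on the 75th percentile. Without a turned sign, members fell back under limma's threshold in 7 cases against the mean of the strains and in 8 against FVB, the 0 of miR-206 among them, and miR-133a* or miR-133b passed it in 7 against FVB. Signs of tumor differences turned in 13 cases. Against the mean of the strains these were miR-206 on the 75th percentile (1.31) and on the median of miRNAs above background on all arrays (0.87), both past the threshold. The other was miR-133a* in green over red (0.026), which was not past it. Against FVB, green over red gave 2.26 for miR-1, 2.85 for miR-133a* and 1.10 for miR-133b. For miR-133a* and miR-133b the 75th percentile gave 2.51 and 1.12, and the median of miRNAs above background on all arrays 2.23 and 0.84. In these settings miR-1 and miR-133a* were past the threshold and miR-133b was not. miR-133b turned to 0.68 with quantile normalization, and miR-133a* to 1.16 with a floor per array and to 0.54 without FVB replicate 2, against -2.00 without FVB replicate 1. These last turned values were not past the threshold. The cause was not tested. The replicate numbers did not pair the samples, with a mean correlation of 0.0440 over 15 pairs of the same number and -0.0221 over 30 of different numbers, and the replicate block gave counts of 237 and 225 and left every member on its side of the threshold. The tumor arrays limit what can be seen, since few of their signals stood above the random spots.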
